A study of Rattus norvegicus with 23 samples.

Results

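Always sensitive (AS) rats took methamphetamine (METH) but suppressed their intake whenever lever presses were punished, and their dorsal striatal RNA was compared here with that of control (CT) rats that self-administered saline. The comparison used 12 of the 23 libraries of the series, 6 from AS and 6 from CT rats, chosen by the treatment named in the sample labels, with 1 library per rat. All animals were adult male wild type Long Evans rats. AS rats pressed for 0.1 mg/kg METH per infusion during 22 days, met footshocks of 0.18 to 0.36 mA on 50% of rewarded presses during 8 days, spent 15 days in abstinence, and then had 12 further days of METH with 0.30 mA footshocks during 3 days. CT rats went through the same phases with saline and without footshocks, so the drug and the punishment cannot be told apart in this comparison. The AS group was named from its behavior in both punishment phases, after separation from always shock-resistant (ASR) rats, which kept taking METH in both, and from delayed shock-resistant (DSR) rats, which suppressed intake in the first phase only. The other libraries came from 6 ASR and 5 DSR rats. After the second self-administration phase, the rats had a second abstinence. Tissue was taken the day after the drug seeking test on day 15 of that abstinence. Each rat carries a code that contains the number 7 or 8, and both groups hold 4 rats with code Grp7 and 2 with code Grp8.

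The dorsal striatum receives input from the cortex and thalamus and dopamine from the midbrain, and it supports habits and learned action sequences. Most of its neurons are inhibitory projection neurons, which send their output to the other basal ganglia nuclei. METH enters dopamine terminals, drives dopamine out of them, and with repeated intake is known to alter gene expression in these neurons and in the glia around them.

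Library totals were similar in both groups, at 18967015 to 23248971 counts in CT rats and 19921481 to 24019678 in AS rats (exact permutation p = 0.697), and libraries contained counts for 19789 to 20398 genes. The files name genes by Ensembl identifier and pair none with a symbol, so genes are described below by identifier, position on Rnor6.0, structure and level, and the labelled tissue could not be checked against marker genes. A bulk sample gives the RNA of all its cells together, so fewer cells of a type and less RNA per cell cannot be told apart.

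In AS rats, a large share of striatal genes differed from the saline controls by a small amount at an unadjusted p under 0.05. In the fit of all rats, the larger differences were more often decreases. Of 16275 genes tested with the quasi-likelihood test of edgeR, 3483 had an unadjusted p under 0.05, or 21.4% of those tested. Of these, 1567 were higher in AS rats (9.63% of genes tested) and 1916 were lower (11.8%). For 2745 of the 3483 genes the difference was under 1.5-fold. At least 1.5-fold differences with an unadjusted p under 0.05 were found for 738 genes (4.53%), with 297 higher (1.82%) and 441 lower (2.71%) in AS rats. Decreases did not outnumber increases in a separate fit of Grp7 rats, where 268 such genes were higher and 230 lower (46.2% lower). The median log2 fold change was 0.80 over the 297 genes and -0.90 over the 441 genes, against 0.02 over all genes tested.

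No gene passed the adjustment for multiple testing, with 0 of 16275 genes (0%) at an adjusted p under 0.05 in edgeR's quasi-likelihood test, and a smallest adjusted p of 0.0615. An adjusted p under 0.1 was reached by 929 genes, of which 272 were higher and 657 lower in AS rats. DESeq2, the tool of the study, gave 884 genes with an adjusted p under 0.05 when fitted to all groups and 936 when fitted to the AS and CT libraries alone. The lower genes were the larger share there too, with 679 lower and 205 higher genes in the former fit and 679 lower and 257 higher genes in the latter. Single genes are therefore described below as higher or lower by an unadjusted p.

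Genes higher and genes lower in AS rats differed in how strongly they are expressed. Levels are in CPM, the count of a gene scaled to a common library size with TMM factors, averaged over AS and CT rats. The 297 higher genes had a median of 1.43 CPM, and 117 of them (39.4%) were under 1 CPM. The 441 lower genes had a median of 5.50 CPM, and 104 of them (23.6%) were under 1 CPM. Of all 16275 genes tested, 1914 were under 1 CPM. Among 5176 genes of 16 to 64 CPM, 7 were at least 1.5-fold higher and 86 at least 1.5-fold lower with an unadjusted p under 0.05. Among 2812 genes of 64 to 256 CPM the counts were 2 and 40, and among the 551 genes of 256 CPM or more they were 0 and 6. The weakly expressed classes held similar numbers of both. Under 1 CPM, 117 of 1914 genes were higher and 104 lower, and at 1 to 4 CPM, 118 of 2237 genes were higher and 88 lower. At 4 to 16 CPM, 53 of 3585 genes were at least 1.5-fold higher and 117 lower. The precision of the counts differs between these classes, and how much of this pattern comes from that was not tested.

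**Figure D1:**
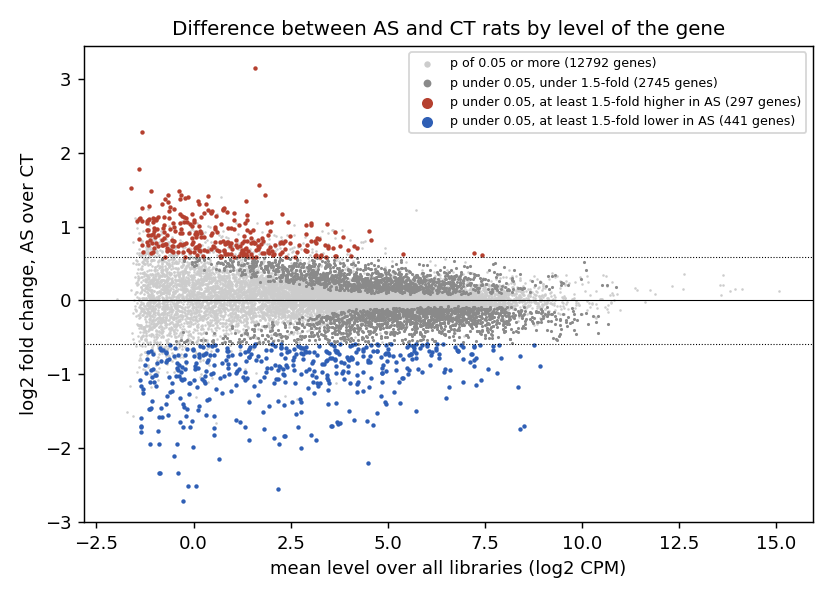
Log2 fold change of AS over CT rats (vertical axis) against the mean level of each of 16275 genes over all libraries (horizontal axis, log2 CPM), with dotted lines at 1.5-fold and colors for genes with an unadjusted p under 0.05. The 297 genes at least 1.5-fold higher in AS rats lie mostly at low levels, while the 441 lower genes extend to high levels.

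The direction of the smaller differences followed the level as well. From 1 to 4 CPM, 114 genes with an unadjusted p under 0.05 and under 1.5-fold difference were higher and 60 lower in AS rats, and the median log2 fold change of the 2237 genes in the class was 0.10. From 64 to 256 CPM, 228 such genes were higher and 520 lower, and the median over 2812 genes was -0.02. The share of genes with an unadjusted p under 0.05 was 12.5% under 1 CPM and 30.3% at 256 CPM or more, against 21.4% of all genes, and the precision of the counts also differs between these classes.

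Most of the long genes that differed were lower in AS rats. In the brain, many of the longest genes encode proteins of synapses, ion channels and cell adhesion. Genes that span 300 kb or more of the genome, from first to last exon, numbered 358, and 98 of them (27.4%, against 21.4% of all genes) had an unadjusted p under 0.05. Of the 98, 16 were higher and 82 lower in AS rats, against 9.63% of all genes higher and 11.8% lower, and 0 and 24 of them reached 1.5-fold. The median log2 fold change of the 358 genes was -0.08. Genes of 100 to 300 kb followed with 135 higher and 303 lower of 1631, 16 and 84 of which reached 1.5-fold, and a median of -0.02. Genes of 10 to 30 kb were split almost evenly, with 503 higher and 485 lower of 4695 and a median of 0.02. Genes under 2 kb had 123 higher and 113 lower of 1646 and a median of 0.04. Span and level are linked across genes. Among genes of at least 4 CPM, lower genes outnumbered higher ones in every class of span, with 48 higher and 67 lower under 2 kb, 273 and 367 at 2 to 10 kb, 397 and 438 at 10 to 30 kb, 356 and 439 at 30 to 100 kb, 120 and 269 at 100 to 300 kb, and 13 and 77 at 300 kb or more. The excess of higher genes under 2 kb was therefore not present at these levels, and the share of lower genes among those with an unadjusted p under 0.05 was 58.3% under 2 kb and 85.6% at 300 kb or more.

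**Figure D2:**
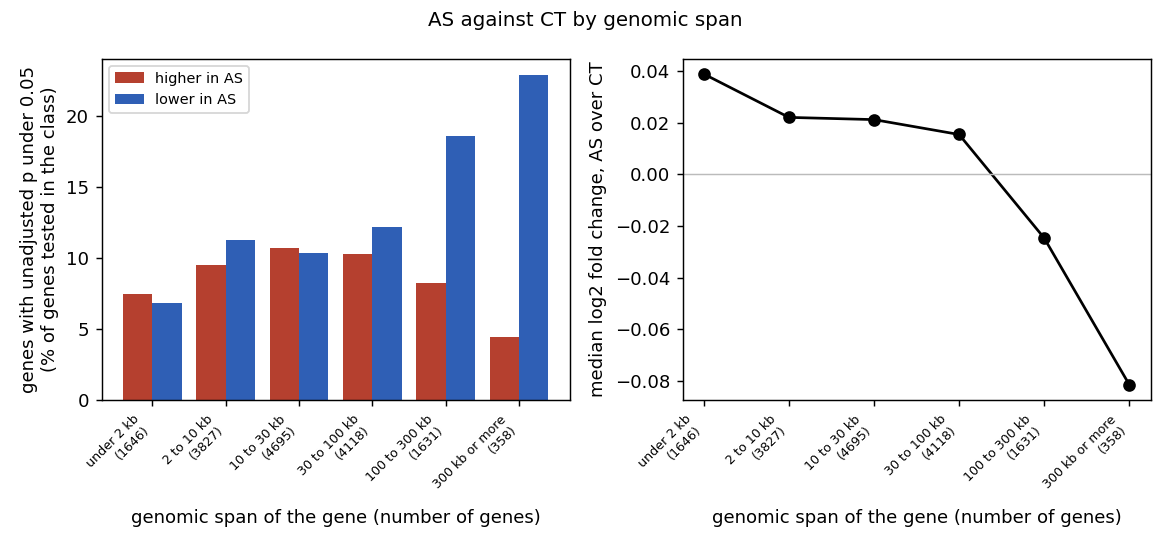
Genes with an unadjusted p under 0.05 as a percentage of the genes tested in each class of genomic span (left, bars for genes higher and lower in AS rats) and the median log2 fold change of AS over CT rats in each class (right). In the class of 300 kb or more, 82 genes were lower and 16 higher, and the median was -0.08.

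The same measure taken per library showed how far rats of both groups overlapped. Genes of 300 kb or more held 2.09% of the counts outside the mitochondrial chromosome in the lowest CT rat, 2.38% at the median and 2.70% in the highest, and 2.09%, 2.20% and 2.28% in AS rats. The AS range lay within the lower part of the CT range, and the lowest CT rat was Grp7-R5. The mean difference was -0.184 percentage points (exact permutation p = 0.0952, adjusted p = 0.268 over 6 library measures). Without CT rat Grp7-R5 it was -0.243 percentage points (exact permutation p = 0.0195), without CT rat Grp8-L11 it was -0.120 (exact permutation p = 0.18), and among Grp7 rats alone it was -0.177 (exact permutation p = 0.2). Without CT rat Grp7-R5, the number of genes of 300 kb or more with an unadjusted p under 0.05 was 26 higher and 116 lower in AS rats. The median log2 fold change of these genes was -0.14 without that rat, -0.13 without CT rat Grp8-R11 and -0.05 without CT rat Grp8-L11.

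The direction also varied with other features of gene structure. Genes with 21 or more exons had 186 higher and 346 lower of 2193 with an unadjusted p under 0.05, and single-exon genes had 85 higher and 100 lower of 1216. Exon number and level are linked too, with a median of 37.1 CPM in the former class and 1.75 CPM in the latter. Among genes of at least 4 CPM, the counts were 161 and 315 for 21 or more exons and 36 and 58 for single-exon genes. Lower genes were then 66.2% and 61.7% of those with an unadjusted p under 0.05, and 52.7 to 59.2% in the classes between. By summed exon length, genes of 8000 bases or more had 19 higher and 67 lower of 348, while genes of 300 to 1000 bases had 191 higher and 110 lower of 1811. Exon length and level are linked as well, with a median of 56.2 CPM in the former class and 3.95 CPM in the latter. The classes of exon length were not examined separately among genes of at least 4 CPM. Among the classes of exon length, higher genes outnumbered lower genes only at 300 to 1000 bases.

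Differences were spread over the genome. On the 20 autosomes and X, between 16.9% (chromosome 20) and 24.2% (chromosome 2) of the genes tested had an unadjusted p under 0.05, around the 21.4% of all genes. Genes at least 1.5-fold lower outnumbered those at least 1.5-fold higher on 16 of the 21 chromosomes, the reverse held on 4, and 1 had equal numbers. Chromosome 7 had 37 lower against 15 higher genes, and chromosome 16 had 9 lower against 14 higher genes.

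Few neighboring genes differed as blocks. In most cases a gene with an unadjusted p under 0.05 had no adjacent tested gene with such a p in the same direction. There were 1199 such single genes higher and 1351 lower in AS rats. Of all genes tested, 9.63% were higher and 11.8% lower at that p. How many single genes and blocks these shares alone would give was not tested. The longest block of adjacent tested genes with an unadjusted p under 0.05 and a shared direction held 6 genes, over chr2:189900667-190008511. All were higher in AS rats, and 5 of them were on the plus strand. Their log2 fold changes were 0.34 to 0.67, with unadjusted p from 0.000864 to 0.0448. Against the same CT rats, these genes had log2 fold changes of 0.09 to 0.18 in ASR rats and of -0.36 to 0.00 in DSR rats. Over chr7:124501988-125055976, 5 adjacent genes were lower in AS rats by log2 fold changes of -1.25 to -0.41, with unadjusted p from 0.000167 to 0.0043. In that block the log2 fold changes against CT rats were -0.68 to -0.19 in ASR rats and -0.33 to 0.01 in DSR rats. The third block, also of 5 genes lower in AS rats, covered chr1:100289295-100408083 with log2 fold changes of -0.89 to -0.16, and 2 of its genes overlap each other. Its values were -0.36 to -0.06 in ASR rats and -0.20 to -0.04 in DSR rats.

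The 12 libraries did not separate completely by group. A principal component analysis of log2 CPM over all genes tested placed 34.3% of the variance on a first component (PC1) and 12% on the second. PC1 scores of CT rats were -51.96 at the lowest, -23.68 at the median and 17.18 at the highest, and those of AS rats were -9.64, 23.71 and 32.70. The means differed by 39.2 (exact permutation p = 0.0108, adjusted p = 0.0648 over 6 library measures), and 10 of the 12 rats fell on their group's side of 0. CT rat Grp7-R5 had the score of 17.18, near those of 5 AS rats at 19.67 to 32.70. AS rat Grp7-L10 had the score of -9.64, between those of CT rats Grp8-R11 (-3.69) and Grp7-R12 (-21.76). Among Grp7 rats alone, the PC1 means differed by 35.0 (exact permutation p = 0.0857). Grp8 rats numbered 2 in each group, too few for the exact permutation test to reach 0.05.

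**Figure D3:**
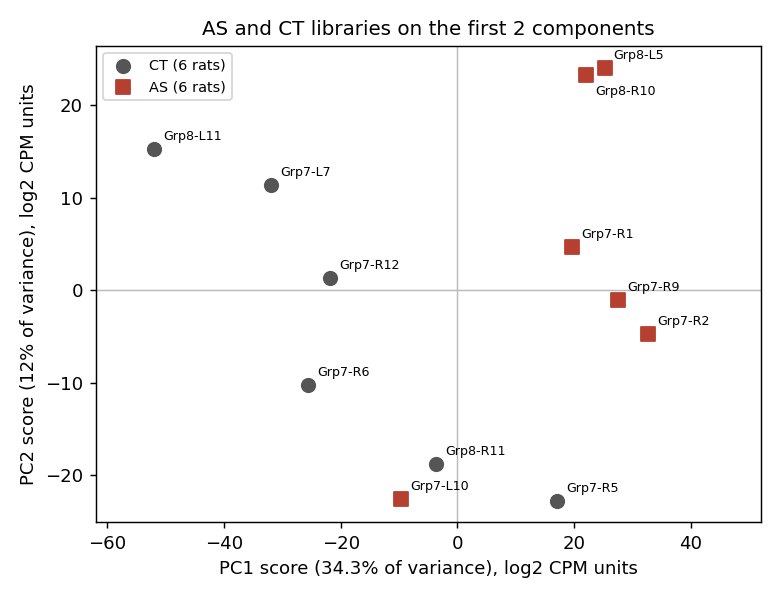
Scores of the 6 CT (circles) and 6 AS (squares) libraries on the first and second principal components of log2 CPM over 16275 genes. CT rat Grp7-R5 lies at 17.18 on PC1, close to the AS rats, and AS rat Grp7-L10 lies at -9.64, among the CT rats.

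The same rats stood out gene by gene. Each AS rat was examined for the 441 lower genes, which were chosen for this contrast, so the counts are a description. AS rats other than Grp7-L10 were below every CT rat in 294 to 368 of the 441 genes, whereas Grp7-L10 was below every CT rat in 51. For the 297 higher genes, the other AS rats were above every CT rat in 161 to 237 and Grp7-L10 in 88. Among CT rats, Grp7-R5 was the lowest CT rat in 280 of the 441 lower genes and the highest CT rat in 150 of the 297 higher genes, while no other CT rat held these places for more than 59 and 45 genes. Both atypical rats carried the code Grp7. The labels of these libraries could not be checked, since no gene was deleted or added in this design.

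Leaving out either rat changed the calls. When CT rat Grp7-R5 was dropped, edgeR's quasi-likelihood test gave 1377 genes at an adjusted p under 0.05, with 423 higher and 954 lower in AS rats. Without AS rat Grp7-L10 the number was 1299, with 263 higher and 1036 lower. Leaving out AS rat Grp8-L5 gave 8 genes, and each of the other 9 rats gave 0. The number of genes with an unadjusted p under 0.05 and at least 1.5-fold difference was 1139 without CT rat Grp7-R5 and 563 without CT rat Grp8-L11, the CT rat with the lowest PC1 score.

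Few genes separated the groups without overlap. Every AS rat was above every CT rat in 70 of 16275 genes (0.43%) and below every CT rat in 64 (0.393%). Only 17 of the 297 higher genes and 10 of the 441 lower genes were among them. With AS rat Grp7-L10 left out, the groups were separated in 895 genes (5.5%), 249 with AS rats above and 646 below. Without CT rat Grp7-R5 they were separated in 602 genes (3.7%), 342 above and 260 below. Leaving out any of the other 10 rats separated them in 153 to 228 genes (0.94 to 1.4%). Complete separation is easier to reach with fewer rats, so a rise on leaving out a rat is not a result in itself.

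The 297 and 441 genes were chosen for their direction in these same rats, so their medians within Grp7 and within Grp8 rats describe sizes only. Among Grp7 rats (4 AS and 4 CT), the median log2 fold change was 0.81 for the 297 higher genes and -0.72 for the 441 lower genes. In Grp8 rats (2 AS and 2 CT), these medians were 0.89 and -1.27. Both atypical rats are in the former set. With a fit of its own, in which the genes were chosen anew, the Grp7 set gave 268 genes at least 1.5-fold higher and 230 lower with an unadjusted p under 0.05, and the Grp8 set gave 315 and 618. Whether the effect differs between the sets was not tested.

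The levels of ASR and DSR rats did not enter the AS and CT means behind these fold changes, but all libraries shared the filter and the estimate of the spread in the fit that chose the genes. Fitted to AS and CT libraries alone, edgeR called 234 of the 297 and 389 of the 441 genes again. The filter of that fit kept 15580 genes, so some of the genes not called again may not have been tested. In it, 257 of the 297 and 398 of the 441 genes were tested with the same direction. Over the 297 genes higher in AS rats, the median log2 fold change against CT rats was 0.80 in AS, 0.45 in ASR and 0.18 in DSR rats. The 441 lower genes had medians of -0.90 in AS, -0.33 in ASR and -0.13 in DSR rats. Over all genes tested these medians were 0.02, 0.00 and 0.00. Of the 441 genes, 84 were at least 1.5-fold lower in ASR and 20 in DSR rats, and of the 297 genes, 105 and 39 were at least 1.5-fold higher. All 3 comparisons share the CT libraries, so an unusual CT rat moves them together. The genes were also chosen partly by their CT values, which by itself can give the ASR and DSR medians the same direction. How much of these medians comes from that choice was not tested.

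Rats of every group were spread along the same gene sets. The median log2 level of the 441 lower genes relative to the CT mean was -1.14 in the lowest AS rat, -1.02 at the median and -0.10 in the highest, Grp7-L10. In CT rats it was -0.52 at the lowest, in Grp7-R5, 0.04 at the median and 0.37 at the highest. ASR rats covered -0.70, -0.28 and -0.04, and DSR rats -0.56, 0.04 and 0.38. Apart from Grp7-L10, the AS rats at -0.84 or less were below all ASR, DSR and CT rats. The genes were chosen as lower in these AS rats than in CT rats, which favors this order, so it is a description only. For the 297 higher genes, the values were 0.50, 0.91 and 1.08 in AS rats, -0.34, 0.00 and 0.48 in CT rats, 0.04, 0.47 and 0.84 in ASR rats and -0.27, 0.03 and 0.80 in DSR rats. DSR rat Grp8-L9 had 0.80 on these genes and -0.56 on the lower genes, and DSR rat Grp7-R7 had -0.27 and 0.38. DSR rat Grp7-L2 had 0.03 on the higher genes and -0.51 on the lower genes.

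**Figure D4:**
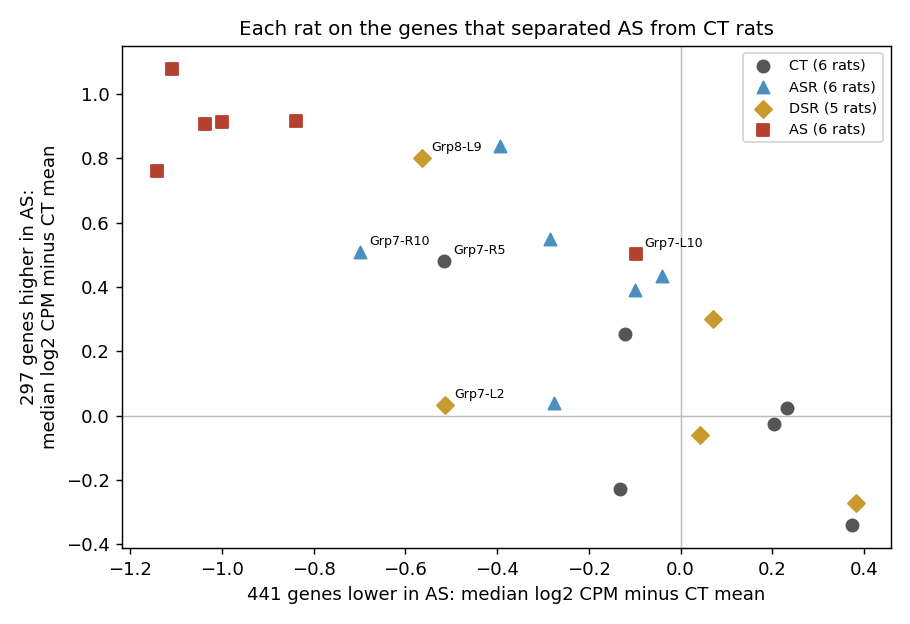
Median log2 CPM of the 297 genes higher in AS rats (vertical axis) and of the 441 genes lower in AS rats (horizontal axis) in each of 23 rats, relative to the mean of CT rats. The genes were chosen for the difference between these AS and CT rats. Of the AS rats, 5 lie at -0.84 or less on the horizontal axis and Grp7-L10 lies at -0.10, while CT rat Grp7-R5 lies at -0.52 and the DSR rats range from -0.56 to 0.38.

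Among the genes with at least 1.5-fold difference and 1 CPM or more, those with the smallest p in each direction are given with their values in all groups. They were chosen for their difference between these same AS and CT rats. Their fold changes, separation and permutation p therefore describe them and add no support beyond that choice. The choice also favors ASR and DSR means that lie between those of CT and AS rats. The reads were counted from a kit that does not mark strand, so reads of genes that overlap on opposite strands cannot be told apart.

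ENSRNOG00000021198 was the gene with the smallest p among those higher in AS rats. It lies on the minus strand at chr17:43679925-43689311 and has 2 exons. CT rats had 10.5 CPM at the lowest, 11.8 at the median and 14.3 at the highest, and AS rats had 17.0, 18.5 and 23.2, so that all AS rats were above all CT rats. The level was 1.61-fold higher in AS rats (log2 fold change 0.69, SE 0.12, edgeR adjusted p = 0.0615), with an exact permutation p of 0.00216, the smallest that 6 against 6 rats can give. ASR rats had a mean of 15.7 ± 2.86 CPM (SD, n = 6) and DSR rats of 14.5 ± 1.61 CPM (SD, n = 5), between the means of CT (12.2 ± 1.63) and AS rats (19.6 ± 2.84). A second gene overlaps it on the plus strand, at chr17:43679411-43689138, with 8.13 to 12.2 CPM in CT and 12.7 to 18.5 CPM in AS rats. Its log2 fold change was 0.54 (SE 0.11, edgeR adjusted p = 0.0615), so the pair counts as a single observation here.

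A further gene of chromosome 17, ENSRNOG00000014361, was also higher in AS rats. It has 5 exons on the minus strand over chr17:22137324-22143324 and overlaps no other gene in the files. Its level was 3.57 CPM in the lowest CT rat, 4.59 at the median and 6.59 in the highest, and 6.21, 8.23 and 9.65 in AS rats. The highest CT rat, Grp7-L7, was thus above the lowest AS rat, Grp7-R2. The log2 fold change was 0.75 (SE 0.16, edgeR adjusted p = 0.0615), and the exact permutation p was 0.00433. Means were 6.14 ± 1.21 CPM in ASR rats (SD, n = 6) and 6.71 ± 1.47 CPM in DSR rats (SD, n = 5).

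Of the lower genes, ENSRNOG00000025111 had the smallest p. It has 9 exons on the plus strand at chr1:88885937-88892615, and no other gene overlaps it. CT rats had 2.09, 2.28 and 2.60 CPM at the lowest, the median and the highest, and AS rats had 1.27, 1.41 and 1.51 CPM. The groups did not overlap, and AS rat Grp7-L10, the highest AS rat at 1.51 CPM, was still below every CT rat. These levels rest on 27 to 35 counts per AS library and 48 to 56 per CT library. The log2 fold change was -0.74 (SE 0.12, edgeR adjusted p = 0.0615, exact permutation p = 0.00216). ASR rats, at 1.75 ± 0.112 CPM (SD, n = 6), lay between both groups, while DSR rats, at 2.20 ± 0.403 CPM (SD, n = 5), overlapped CT rats.

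ENSRNOG00000026579 had the next smallest p among the lower genes. It spans chr1:219864113-219898243 on the minus strand, with 13 exons and no overlapping gene. CT rats had 1.72, 2.28 and 2.77 CPM at the lowest, the median and the highest and AS rats 0.702, 1.16 and 1.58 CPM, again without overlap. The log2 fold change was -0.92 (SE 0.18, edgeR adjusted p = 0.0615, exact permutation p = 0.00216). It was -0.63 among Grp7 rats and -1.54 among Grp8 rats, and the counts were low, at 14 to 33 per AS library and 37 to 60 per CT library. In ASR and DSR rats the means were 1.93 ± 0.328 CPM (SD, n = 6) and 1.74 ± 0.374 CPM (SD, n = 5), and both groups overlapped with CT and AS rats.

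**Figure D5:**
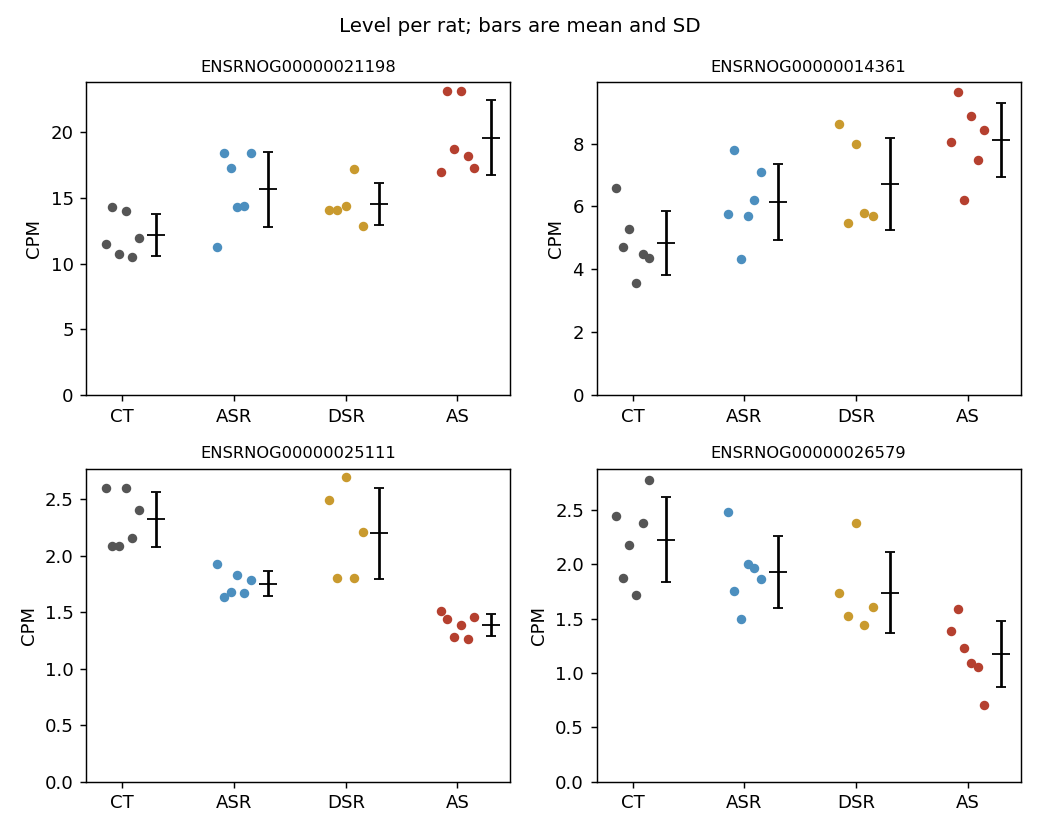
CPM of the 4 genes in each of 23 rats by group (points), with the mean and SD of each group (bars). For ENSRNOG00000021198, ENSRNOG00000025111 and ENSRNOG00000026579, the 6 AS and 6 CT rats do not overlap, and the ASR and DSR means lie between the CT and AS means for all 4 genes. The genes were chosen for the difference between these AS and CT rats, which favors both features.

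Overlap with a gene on the opposite strand was not more frequent among the differing genes. It concerned 39 of the 297 higher genes (13.1%) and 48 of the 441 lower genes (10.9%), against 14.6% of all genes tested.

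Transcripts of the mitochondrial chromosome, which encodes subunits of the respiratory chain with their ribosomal and transfer RNAs, took 11.7 to 13.4% of counts in CT rats, with a median of 12.8%. AS rats had 11.9% at the lowest, 13.1% at the median and 19.6% at the highest. The highest value was that of AS rat Grp7-R1, and the other 5 AS rats lay at 11.9 to 13.3%, within the CT range. The mean difference of 1.21 percentage points was not significant (exact permutation p = 0.448) and was 0.0606 percentage points without Grp7-R1. Of 30 mitochondrial genes tested, 0 had an unadjusted p under 0.05 (smallest 0.0594) in edgeR's quasi-likelihood test. A log2 fold change above 0 was found in 26 of the 30, against 8734 of all 16275 genes tested. The median log2 fold change of the mitochondrial genes was 0.16. Without Grp7-R1 the median was 0.00, and in Grp8 rats alone it was -0.06. With scaling on the other genes alone, at least 1.5-fold differences at an unadjusted p under 0.05 were found for 727 genes, 268 higher and 459 lower in AS rats.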

How the data were processed

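Dorsal striatal RNA was enriched with oligo(dT) beads and sequenced as paired-end reads. Per the labels and the submitters' processing notes, the authors used Trimmomatic 0.36, STAR 2.5.2b and featureCounts of Subread 1.5.2 on Rnor6.0, and deposited raw counts per Ensembl gene for 32552 genes. Computed here in R 4.3.3 with edgeR 4.0.16 were TMM factors, CPM and a quasi-likelihood fit of all 23 libraries (19 residual degrees of freedom), with the contrast AS minus CT and Benjamini-Hochberg adjustment over genes kept by filterByExpr (minimum count 10, total 15). Standard errors follow from the fold change and F statistic. Single values were tested with two-sided exact permutation tests over 924 groupings, on log2 CPM (prior count 2) for genes. Exons that overlap or touch were merged. DESeq2 1.42.0 was an alternative. Scripts were tested on simulated data.

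Comparison, lists and rules were chosen with earlier results of these data known. None of 47357 rows of the RefSeq table holds an Ensembl identifier, so the 31 lists of gene symbols, the marker lists and sequences were not used here. The naming rule then allowed identifiers by smallest p among genes of at least 1.5-fold difference and 1 CPM, and 2 per direction are printed.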

Additional observations from a re-analysis of the deposited data

Results flagged for a closer look

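In 20 sets of 6 rats (6 library measures and 4 genes, in AS and in CT rats), the most extreme rat was compared with the nearest other rat by Dixon's criterion, which chance alone exceeds in about 1 of 20 sets. AS rat Grp7-R1 stood apart with 19.6% of its counts on the mitochondrial chromosome, against 13.3% in the next AS rat. The same rat had 20.2% of its counts in the 10 genes with most counts, against 15.2% in the next. AS rat Grp7-L10 stood apart on PC1 with a score of -9.64, against 19.67 in the nearest AS rat. CT rat Grp7-R6 had counts for 20398 genes, against 20122 in the next CT rat. CT rat Grp7-R5 did not stand apart by this criterion on any of these measures.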

How the results depend on the processing

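The 3483 genes with an unadjusted p under 0.05 numbered 2004 in Grp7 rats alone and 1743 in Grp8 rats alone, and 2434 to 4786 when each rat was left out. The 738 genes with at least 1.5-fold difference became 1301 without a filter on low counts and 63 with a log2 fold change over 1.5, and 563 to 1139 when each rat was left out. The 0 genes with an adjusted p under 0.05 became 884 when DESeq2 was fitted to all groups, 936 when it was fitted to AS and CT libraries and 86 in Grp8 rats alone, and 0 to 1377 when each rat was left out. RLE factors, edgeR on AS and CT libraries, the code number as a covariate and scaling without mitochondrial genes left these counts within 1.5 times. The median log2 fold change of mitochondrial genes turned to -0.0606 in Grp8 rats. Fold changes of the 4 named genes kept their sign in every alternative, and their adjusted p ranged from 8.47e-05 to 0.399. The alternatives for span classes and library measures were chosen after seeing the data. No paired analysis was possible because no rat code is shared between groups. The causes of these changes were not tested. Counts of 14 to 60 per library limit the precision of the weakest genes named.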
